A study of Mus musculus with 2 samples.

Results

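The genes that encode the spliceosome's Sm and LSm proteins, its SF3A, SF3B and PRPF proteins and the SR splicing regulators were followed in RNA recovered with the RNA-binding protein Nanos2 from mouse fetal testis. Members were the probes whose gene symbol in the deposited table began with Lsm, Snrp, Sf3a, Sf3b, Prpf, Sfrs or Srsf in the form these families use, leaving out Lsm14a and Snrpn. They numbered 118 of 41174 probes and 62 genes, and all 62 genes were among the 15266 genes tested. The rule takes genes by name and uses no measured value.

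The tissue was the male gonad at embryonic day 14.5, from mice of the MCH strain with a Tg-Nanos2 transgene. In it a Nanos2 enhancer drives 3xFLAG-Nanos2, which carries a FLAG tag in triplicate, and the Nanos2 3′ untranslated region follows. RNA from an immunoprecipitation on anti-FLAG M2-agarose (FLAG IP) was compared with RNA that had met no antibody (input), to ask which messages go with Nanos2. Each group had 2 one-colour Agilent arrays, described as biological duplicates, and the labels do not say how many gonads each array pools. Both groups carried the transgene, and no precipitate from untagged gonads or with another antibody was analysed here, so RNA held by the beads alone was not measured.

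Pre-mRNA splicing is carried out by small nuclear ribonucleoproteins, in which a ring of Sm proteins, or of LSm proteins on U6, clasps a small nuclear RNA. SF3A and SF3B help the U2 particle hold the branch site, PRPF proteins build and remodel the assembled spliceosome, and SR proteins bind exons and recruit the machinery to weak sites. Another LSm ring acts in the cytoplasm, where it helps remove the cap of messages that lost their tail; Nanos2 is known for RNA repression in fetal male germ cells.

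A level below is log2 of the processed signal relative to the 75th percentile of its array, and a log2 fold change is the FLAG IP mean minus the input mean with the moderated SE, n = 2 arrays per group. Adjusted p-values are from limma with Benjamini-Hochberg adjustment over the 15266 genes, two-sided, and a gene was called at 0.05. Levels are compared only within a probe. The 75th percentile of the raw processed signal was 1026 and 1038 on the input arrays and 55.7 and 608 on the FLAG IP arrays, and between 42.7% and 70.2% of probes were well above background. Both FLAG IP arrays and input replicate 2 shared a slide, and input replicate 1 was alone on another. With 2 arrays per group their number limits the precision, and the p-values measure only the spread between these arrays.

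Markers of the cells in the gonad moved between the groups. The summed signal of 6 germ cell markers, scaled to the 75th percentile, ran from 79.7 to 85.1 in input and from 147 to 169 in FLAG IP, with 3 markers higher and 1 lower. That of 3 Sertoli markers went from 26.7 to 27.1 in input to 4.18 to 4.24 in FLAG IP. The sum over 3 Leydig markers was 91.5 to 101 in input and 12.5 to 13.2 in FLAG IP, and over 3 erythroid markers 371 to 400 and 46.8 to 58.4. All 9 somatic and blood markers were lower, and all 15 markers were well above background on both input arrays, none at 0. These shifts stand beside every result below, and their part in them was not tested. In such bulk RNA, fewer cells of a type, less RNA per cell and lower recovery of a message in the precipitate cannot be told apart.

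The splicing genes went both ways in about the shares seen over the whole array. Of the 62 genes, 15 were higher in FLAG IP (24.2%, against 28% of all genes tested) and 12 were lower (19.4%, against 25.4%), while 35 were not called. Their median log2 fold change was -0.08, beside 0.07 over all genes. The input and FLAG IP arrays did not overlap in 48 members (77.4%, against 80.2% of all genes). Within the shared slide, which is the same as leaving out input replicate 1, 3 members were higher and 3 lower (9.37% and 10.1% of all genes). The same 6 genes were called there and without input replicate 2: Akap17b, Lsm14b and Srsf5 higher, and Sf3b5, Snrpd2 and Lsm4 lower. Without FLAG IP replicate 1 the counts were 26 higher and 25 lower (40.6% and 40.7% of all genes), and without FLAG IP replicate 2 they were 25 and 23 (44.8% and 37.4%). Normexp background correction left 3 higher and 7 lower (8.35% and 9.18% of all genes). Those higher were Akap17b, Srek1 and Srsf5, and those lower were Snrpd2, Snrpf, Snrpa, Snrpc, Lsm4, Sf3b5 and Prpf19.

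**Figure D1:**
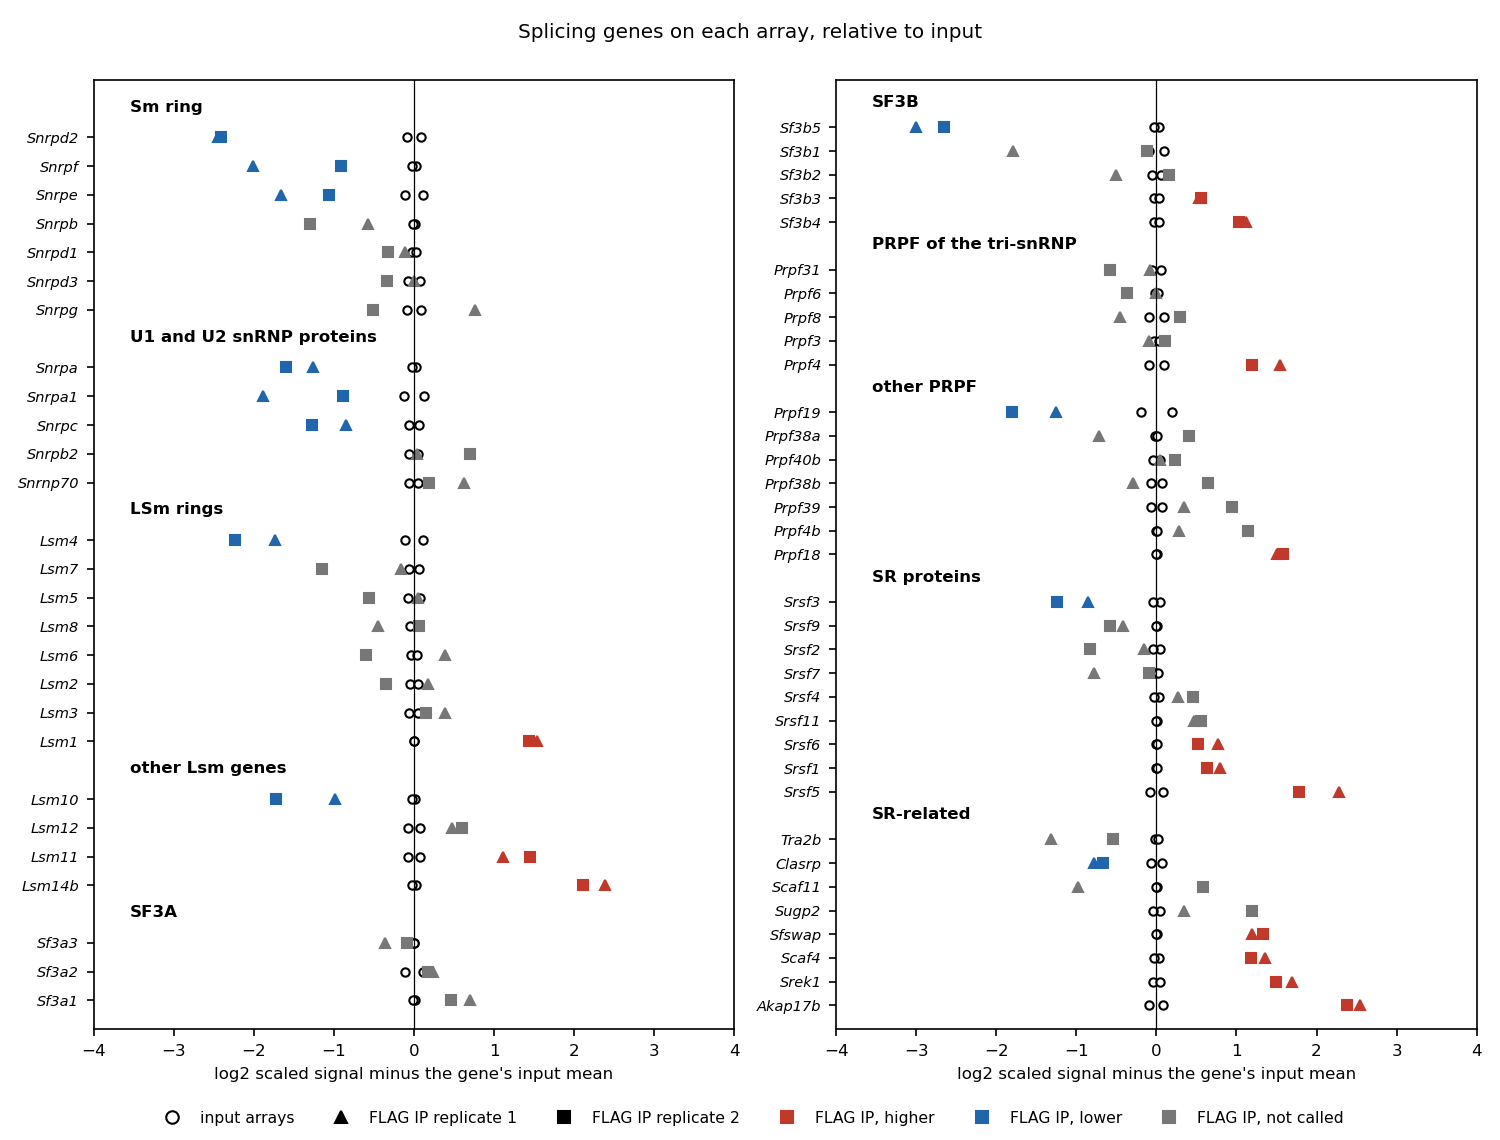
Log2 scaled signal of the 62 splicing genes on each array minus the gene's own input mean, 61 of them drawn, by role; circles are input arrays, triangles FLAG IP replicate 1, squares FLAG IP replicate 2, and colour gives the call. The input circles lie close to 0 throughout, Sf3b5 and Snrpd2 lie farthest to the left, Akap17b and Lsm14b farthest to the right, and 12 genes have their FLAG IP arrays on opposite sides of the input mean.

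The genes of the Sm ring, the shared core of the U1, U2, U4 and U5 particles, held 3 lower, 0 higher and 4 uncalled genes of 7. Over all genes tested, 25.4% were lower and 28% higher. Snrpd2 read 3.58 and 3.41 on the input arrays and 1.05 and 1.09 on the FLAG IP arrays, 5.37-fold lower (log2 fold change -2.42 ± 0.17, adjusted p = 0.00381). The FLAG IP arrays nearly coincided and lay far below both inputs. Snrpf read 4.52 and 4.46 in input and 2.47 and 3.58 in FLAG IP, 2.76-fold lower (-1.46 ± 0.42, adjusted p = 0.0454). When every probe was tested on its own, this probe was not called (adjusted p = 0.0583), and a second probe, whose FLAG IP arrays lay closer together, was lower at -1.63 ± 0.16. Snrpe read 2.20 and 1.97 in input and 0.43 and 1.02 in FLAG IP, 2.57-fold lower (-1.36 ± 0.27, adjusted p = 0.0179). In each of these 3 genes the groups did not overlap, as in 80.2% of all genes.

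The remaining Sm ring genes did not pass. Snrpb, which encodes a subunit closely resembling the product of Snrpn, read 3.14 and 3.10 in input and 2.54 and 1.82 in FLAG IP (-0.94 ± 0.30, adjusted p = 0.0592). Cross-hybridisation between these 2 genes was not tested. Snrpd1 and Snrpd3 gave -0.22 and -0.17, and Snrpd3 overlapped input. Snrpg was the one Sm ring gene above 0, at 0.13 ± 0.48, and its FLAG IP arrays read 5.93 and 4.65 around inputs of 5.24 and 5.07. The median over the 7 genes was -0.94, which is -1.01 relative to the median of all genes. Relative to all genes it stayed negative with quantile normalization (-0.88) and with normexp background correction (-1.54).

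Among the proteins that are particular to the U1 and U2 particles, 3 of 5 genes were lower and 0 higher. These shares were 25.4% and 28% over all genes. Snrpa, the U1 protein that binds a stem loop of U1 RNA, read 4.92 and 4.87 in input and 3.63 and 3.30 in FLAG IP, 2.70-fold lower (-1.43 ± 0.19, adjusted p = 0.00740). All 4 of its probes were lower, from -2.31 to -1.42. Snrpa1, the leucine-rich U2 protein, read 2.41 and 2.65 in input and 0.66 and 1.65 in FLAG IP, 2.60-fold lower (-1.38 ± 0.39, adjusted p = 0.0452). Snrpc, the small U1 protein at the splice donor site, read 4.02 and 3.88 in input and 3.10 and 2.68 in FLAG IP, 2.09-fold lower (-1.06 ± 0.22, adjusted p = 0.0195). None of these 3 overlapped input, as was so for 80.2% of all genes. The calls of Snrpa1 and of Snrpf were lost with quantile normalization and with no filter on dim probes, and that of Snrpa1 also with normexp. With no filter the calls of Snrpe and Snrpc were lost as well, and that of Snrpe also with normexp.

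The other genes of this group lay above 0 without a call on their brightest probes. Snrpb2, the U2 partner of the Snrpa1 protein, gave 0.37 ± 0.28 and its groups overlapped. Snrnp70, the U1 protein that SR proteins contact, read 5.43 and 5.32 in input and 5.997 and 5.56 in FLAG IP (0.41 ± 0.22, adjusted p = 0.191). Its other probe was called lower at -2.14 ± 0.19 when each probe was tested on its own. The mean of its probes gave -0.87 and was called lower (adjusted p = 0.0262). Taking the Sm ring and these proteins as the 12 genes named Snrp, 6 were lower and 0 higher, with a median of -1.002, against 25.4% lower and 28% higher over all genes. These counts moved with the arrays used, as did the shares over all genes. Relative to all genes, the median of the 12 was -1.03 within the slide and -1.11 without input replicate 2. It was -0.89 without FLAG IP replicate 1 and -0.87 without FLAG IP replicate 2. With no filter on dim probes 2 were lower and 0 higher (13.9% and 16.8% of all genes). Quantile normalization gave 4 lower and 1 higher (24.3% and 26.7% of all genes), and normexp 4 lower and 0 higher (9.18% and 8.35%). The mean of a gene's probes gave 7 lower and 1 higher (25.6% and 26.2% of all genes). Relative to all genes the median of the U1 and U2 proteins was -1.14, and -0.90 and -1.72 under quantile normalization and normexp. Both groups kept a negative median without either FLAG IP array: -0.91 and -0.73 for the Sm ring, -0.88 and -1.01 for the U1 and U2 proteins, in each case relative to all genes.

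The LSm genes did not share a direction. In the rings made of Lsm1 to Lsm8, 1 gene was higher, 1 lower and 6 uncalled. Of all genes, 28% were higher and 25.4% lower. Lsm4, a subunit of both the nuclear and the cytoplasmic ring, read 4.96 and 4.74 in input and 3.12 and 2.61 in FLAG IP, 3.96-fold lower (-1.99 ± 0.25, adjusted p = 0.00618). Lsm1, the subunit found only in the cytoplasmic ring that acts in decapping, read 3.11 and 3.11 in input and 4.64 and 4.55 in FLAG IP, 2.80-fold higher (1.48 ± 0.16, adjusted p = 0.00476). Input and FLAG IP did not overlap for either gene, as for 80.2% of all genes, and for Lsm1 both pairs of arrays were tight. Lsm8, the subunit that replaces Lsm1 in the nuclear ring on U6 RNA, read 3.88 and 3.77 in input and 3.38 and 3.89 in FLAG IP (-0.19 ± 0.24, adjusted p = 0.535).

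The shared ring subunits other than Lsm4 ranged from -0.66 for Lsm7 to 0.27 for Lsm3, none called. Lsm7 read 5.39 and 5.26 in input and 5.16 and 4.17 in FLAG IP, so that its lower mean rested mainly on FLAG IP replicate 2. Lsm6 read 3.21 and 3.28 in input and 3.63 and 2.65 in FLAG IP, on both sides of input. Lsm2 and Lsm5 also had FLAG IP arrays on both sides of their input mean.

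The U7 particle, which trims the end of replication-dependent histone messages, has 2 LSm proteins of its own, and their genes went opposite ways. Lsm10 read 2.90 and 2.87 in input and 1.90 and 1.16 in FLAG IP, 2.55-fold lower (-1.35 ± 0.30, adjusted p = 0.0241). Lsm11 read -1.08 and -1.23 in input and -0.04 and 0.30 in FLAG IP, 2.43-fold higher (1.28 ± 0.20, adjusted p = 0.0101). Neither overlapped input, as was so for 80.2% of all genes. Lsm14b, a relative of the Lsm14a protein of cytoplasmic RNA granules, read -0.39 and -0.43 in input and 1.97 and 1.70 in FLAG IP, 4.75-fold higher (2.25 ± 0.18, adjusted p = 0.00381). Its other probe, well above background on 3 arrays, gave 0.24 and was not called. Lsm12 gave 0.54 ± 0.17 and missed the threshold at an adjusted p of 0.0583.

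The SF3 genes held the largest fall of all 62. Sf3b5, one of the smallest SF3B subunits, read 2.81 and 2.75 in input and -0.23 and 0.12 in FLAG IP, 7.12-fold lower (-2.83 ± 0.20, adjusted p = 0.00381). Every other SF3B gene lay well to the right of it. Sf3b4, which contacts the pre-mRNA near the branch site, read 2.40 and 2.47 in input and 3.55 and 3.47 in FLAG IP, 2.11-fold higher (1.07 ± 0.16, adjusted p = 0.00879). Sf3b3, a scaffold subunit, read 2.60 and 2.66 in input and 3.16 and 3.19 in FLAG IP, 1.46-fold higher (0.55 ± 0.16, adjusted p = 0.0463). That call was lost with median centring, normexp, no filter on dim probes and a block for replicate number. The mean of the gene's probes reversed it, at -1.42.

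Sf3b1, the subunit that clamps the branch site helix, read 0.36 and 0.17 in input and -1.52 and 0.15 in FLAG IP (-0.95 ± 0.61, adjusted p = 0.254). FLAG IP replicate 1 was far below input and replicate 2 just under it, which made this the largest gap between the FLAG IP arrays among the 62 genes. Sf3b2 gave -0.18 and overlapped input. None of the 3 SF3A genes was called: Sf3a1 gave 0.58 ± 0.17 (adjusted p = 0.0516), Sf3a2 0.20 and Sf3a3 -0.23. Sf3a2 was the single member not well above background on all 4 arrays.

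The PRPF genes held 3 higher, 1 lower and 9 uncalled of 13, against 28% higher and 25.4% lower over all genes. In the tri-snRNP, the particle of U4, U6 and U5 that joins before activation, Prpf4 was the 1 called gene of 5. It read 2.59 and 2.41 in input and 4.04 and 3.69 in FLAG IP, 2.58-fold higher (1.37 ± 0.21, adjusted p = 0.00937). Both of its probes were higher. Prpf3, whose product binds that of Prpf4, read 3.16 and 3.21 in input and 3.09 and 3.29 in FLAG IP (0.01 ± 0.17, adjusted p = 0.976). Prpf8, the scaffold of the catalytic centre, gave -0.08, Prpf6 -0.18 and Prpf31 -0.33, all without a call.

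Outside the tri-snRNP, Prpf18, which acts in the second catalytic step, read 1.81 and 1.80 in input and 3.31 and 3.38 in FLAG IP, 2.91-fold higher (1.54 ± 0.16, adjusted p = 0.00440). All 3 of its probes were higher, between 1.44 and 1.67. Prpf19, the ubiquitin ligase at the core of its own spliceosomal complex, read 2.77 and 2.38 in input and 1.32 and 0.77 in FLAG IP, 2.89-fold lower (-1.53 ± 0.28, adjusted p = 0.0152). The groups of both genes were apart, as in 80.2% of all genes. Prpf4b, a kinase of the pre-catalytic spliceosome, gave 0.71 ± 0.34 and Prpf39, a U1-associated protein, 0.64 ± 0.27. Neither passed, nor did Prpf38a (-0.16), Prpf38b (0.18) or Prpf40b (0.14).

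SR protein genes held 3 higher, 1 lower and 5 uncalled of 9, against 28% higher and 25.4% lower over all genes. With the mean of a gene's probes 1 was higher and 2 lower (26.2% and 25.6% of all genes). Normexp gave 1 higher and 0 lower (8.35% and 9.18%). Over single probes 3 were higher and 4 lower of 19 (23.2% and 22.4% of all probes). Srsf5 read 1.88 and 1.72 in input and 4.07 and 3.58 in FLAG IP, 4.08-fold higher (2.03 ± 0.24, adjusted p = 0.00564). Both of its probes were higher, the smaller change being 0.78. Srsf1, the founding member, read 3.96 and 3.98 in input and 4.76 and 4.59 in FLAG IP, 1.64-fold higher (0.71 ± 0.17, adjusted p = 0.0272). Srsf6 read 3.13 and 3.16 in input and 3.92 and 3.66 in FLAG IP, 1.56-fold higher (0.65 ± 0.18, adjusted p = 0.0420). The call of Srsf6 was lost with median centring, normexp, no filter on dim probes, the mean of its probes and a block for replicate number. Neither of its probes was called when each was tested on its own (adjusted p = 0.0551 and 0.0914). That of Srsf1 was lost with normexp, no filter and the replicate block, and the mean of the probes of Srsf1 gave -0.048.

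Srsf3, a short SR protein that also serves mRNA export, was the SR gene called lower. It read -0.04 and -0.13 in input and -0.94 and -1.33 in FLAG IP, 2.08-fold lower (-1.05 ± 0.21, adjusted p = 0.0177). That call was lost with normexp and with no filter on dim probes. Srsf2, a nuclear speckle protein, read 4.44 and 4.36 in input and 4.25 and 3.58 in FLAG IP (-0.49 ± 0.28, adjusted p = 0.212), on its brightest probe. Its 3 other probes were called lower when each probe was tested on its own, from -1.52 to -0.71. Srsf9 (-0.50), Srsf7 (-0.44), Srsf4 (0.36) and Srsf11 (0.51) were not called. Input and FLAG IP arrays did not overlap in any of the 9 SR genes, as in 80.2% of all genes.

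SR-related genes held the largest rise of the 62, with 4 higher, 1 lower and 3 uncalled of 8. The shares over all genes were 28% higher and 25.4% lower. Akap17b, an A-kinase anchoring protein gene listed on the array as Sfrs17b, read -0.83 and -0.66 in input and 1.79 and 1.63 in FLAG IP, 5.50-fold higher (2.46 ± 0.17, adjusted p = 0.00381). Srek1, an SR-rich regulator listed as Sfrs12, read 0.39 and 0.47 in input and 2.12 and 1.93 in FLAG IP, 3.02-fold higher (1.59 ± 0.17, adjusted p = 0.00484). The FLAG IP arrays of both genes agreed closely. Scaf4, a partner of the RNA polymerase II tail listed as Sfrs15, read 1.26 and 1.20 in input and 2.59 and 2.42 in FLAG IP, 2.41-fold higher (1.27 ± 0.17, adjusted p = 0.00683). Sfswap, a splicing regulator of its own message listed as Sfrs8, read 3.03 and 3.02 in input and 4.22 and 4.36 in FLAG IP, 2.40-fold higher (1.27 ± 0.16, adjusted p = 0.00650).

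Clasrp, a partner of the kinase Clk4 listed as Sfrs16, was the SR-related gene called lower. It read 3.37 and 3.23 in input and 2.52 and 2.63 in FLAG IP, 1.65-fold lower (-0.73 ± 0.17, adjusted p = 0.0260). That call was lost with normexp, no filter on dim probes and a block for replicate number. Tra2b, the exon-binding activator listed as Sfrs10, read 3.15 and 3.19 in input and 1.85 and 2.63 in FLAG IP (-0.93 ± 0.31, adjusted p = 0.0689). Scaf11, listed as Sfrs2ip, read 2.27 and 2.26 in input and 1.28 and 2.85 in FLAG IP, with the FLAG IP arrays on opposite sides of input. Sugp2, listed as Sfrs14, gave 0.77 ± 0.34 and was not called on its brightest probe, while its other probes were higher at 1.28 and 1.25.

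The medians of the groups ran from -1.06 for the U1 and U2 proteins to 1.02 for the SR-related genes. The LSm rings lay at -0.15, SF3B at -0.18, the PRPF genes of the tri-snRNP at -0.08, SF3A at 0.20, the SR proteins at 0.36, the other PRPF genes at 0.41 and the other Lsm genes at 0.91. Relative to all genes, the SR-related median was 0.94, with 1.02 under quantile normalization and 0.16 under normexp. The SR protein median changed sign, from 0.29 to -0.47 under normexp. It was also below 0 with no filter on dim probes (-0.19), with the mean of a gene's probes (-0.07) and over single probes (-0.04). The medians of SF3B and the tri-snRNP genes turned from -0.25 and -0.15 to 0.20 and 0.14 under quantile normalization. These groups hold 3 to 9 genes each, share the same 4 arrays and were not tested as sets.

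**Figure D2:**
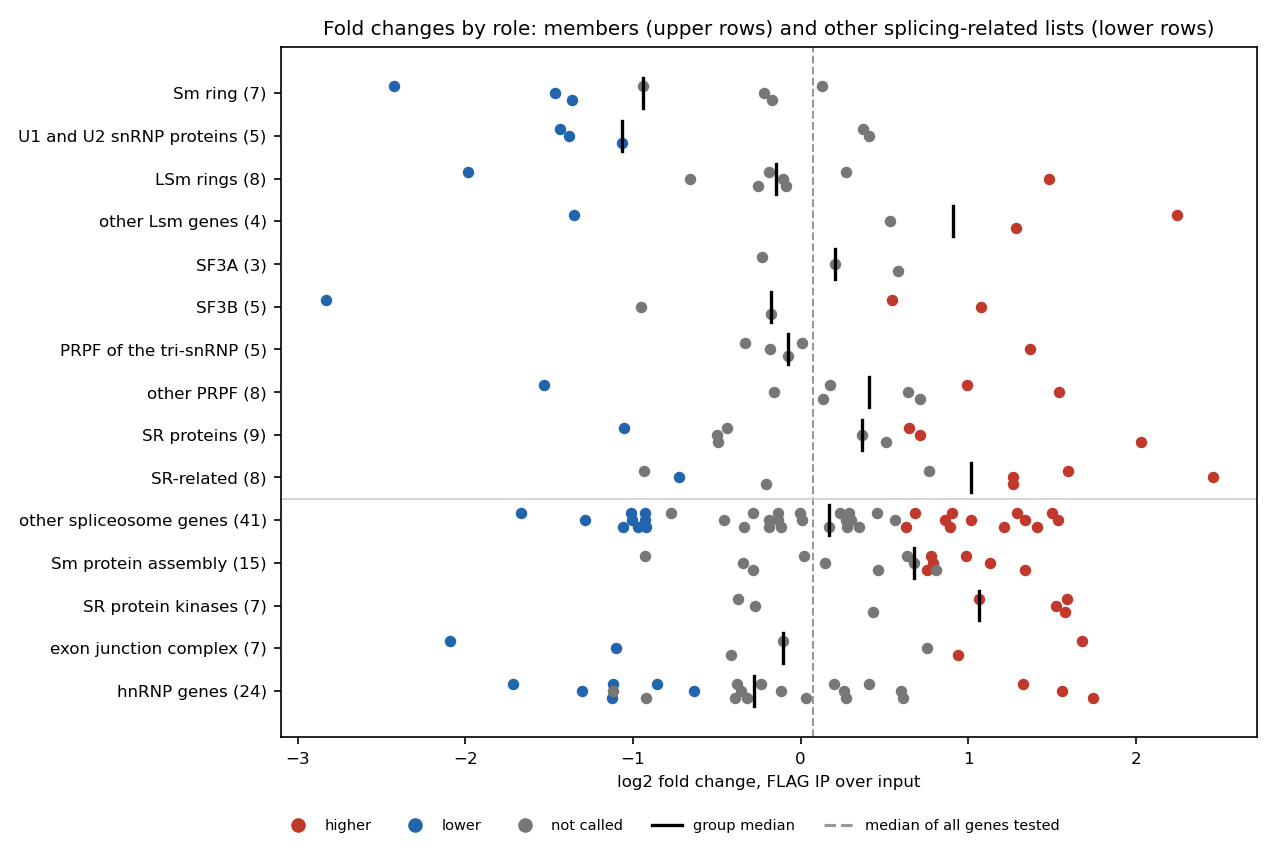
Log2 fold change of each gene, FLAG IP over input, by role for the members (upper part) and for other splicing lists (lower part), with the number of genes in brackets, black bars for group medians and a dashed line at the median of all genes, 0.07. The Sm ring and the U1 and U2 proteins have medians of -0.94 and -1.06 and no higher call, while the SR protein kinases and the Sm assembly genes have no lower call.

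**Figure D3:**
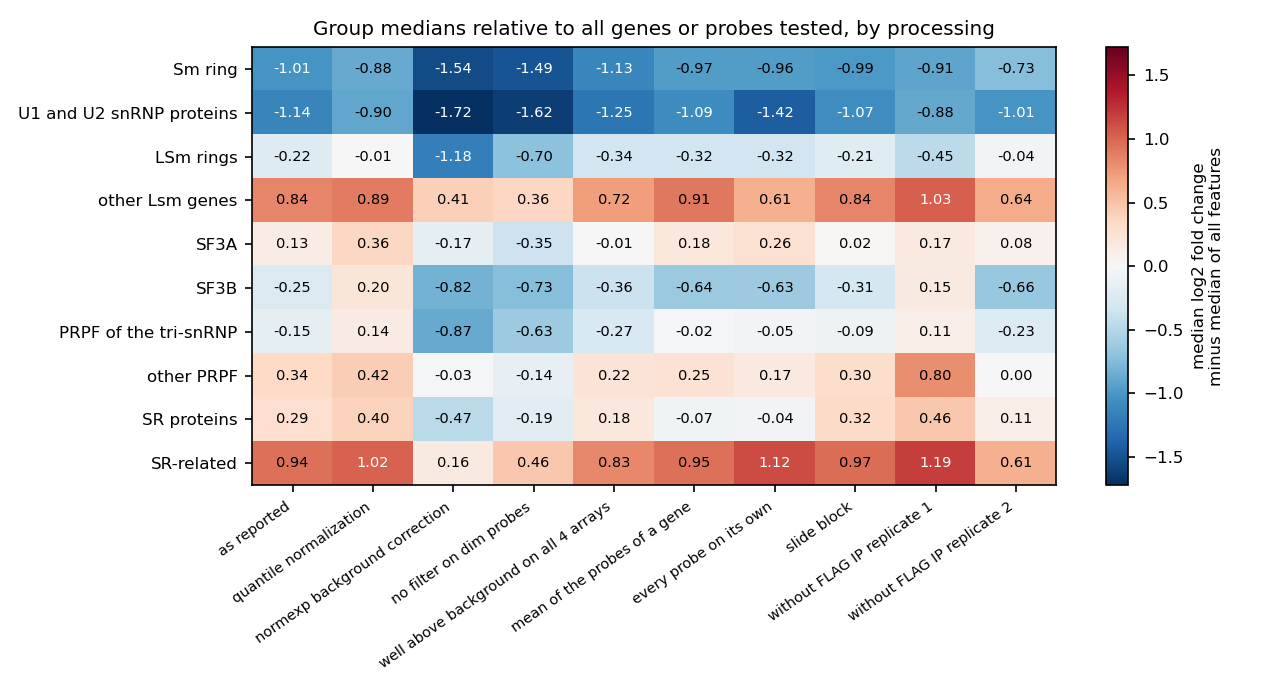
Median log2 fold change of each role group minus the median of all features tested, under 10 ways of processing the arrays, with blue below 0 and red above 0. The Sm ring, the U1 and U2 proteins and the LSm rings are below 0 in every column shown, the other Lsm genes and the SR-related genes above 0 in every column, and the other 5 groups change sign between columns.

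Genes that act with these proteins, from lists of other splicing factors, are described in the same way. Of 41 other spliceosome genes tested, 12 were higher and 9 lower (28% and 25.4% of all genes), with a median of 0.17. The largest rises were those of Bcas2 (1.54 ± 0.20) and Cdc5l (1.41 ± 0.16), whose products sit in the Prpf19 complex, and of the branch point binding protein gene Sf1 (1.50 ± 0.15). Snrnp25 (-1.67 ± 0.16) and Snrnp35 (-1.06 ± 0.16), of the minor spliceosome, and Ppih (-1.29 ± 0.19), a prolyl isomerase of the tri-snRNP, were lowest.

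The SMN and PRMT5 complexes load and methylate the Sm proteins, and of a list of 15 genes of these complexes and of later steps in snRNP maturation 6 were higher and 0 lower, with a median of 0.68. Gemin4 gave 1.34 ± 0.27, Gemin8 1.13 ± 0.22 and the importin adaptor gene Snupn 0.98 ± 0.19, all called. Of 7 genes of SR protein kinases, which phosphorylate the SR domain, 4 were higher and 0 lower, with a median of 1.07. Clk4 gave 1.59 ± 0.22, Srpk1 1.58 ± 0.21 and Clk2 1.52 ± 0.19. The calls over all genes were 28% higher and 25.4% lower, and no test set these lists against others.

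The exon junction complex, which splicing leaves on messages, had 2 higher and 2 lower of 7 genes (28% and 25.4% of all genes). Casc3 rose by 1.68 ± 0.18 and Rnps1 by 0.94 ± 0.16, whereas Rbm8a (-2.09 ± 0.61) and Magoh (-1.10 ± 0.28), which encode a dimer, were lower. Of 24 genes of heterogeneous nuclear ribonucleoproteins, which often oppose SR proteins on exons, 3 were higher and 6 lower. The shares over all genes were 28% and 25.4%, and the median of these 24 was -0.28. Ptbp2 (1.75 ± 0.20), Syncrip (1.56 ± 0.22) and Hnrnpf (1.32 ± 0.30) were higher. Hnrnph3 (-1.71 ± 0.48), Hnrnpa1 (-1.30 ± 0.16) and Hnrnpll (-1.13 ± 0.24) had the most negative called values. Hnrnph3 was well above background on only 1 of the FLAG IP arrays.

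Several members were measured by more than 1 probe, and the probes did not always agree. With every probe tested on its own, 108 of the 118 probes entered, and 22 were higher and 20 lower (23.2% and 22.4% of all 26529 probes tested). Of 31 genes with more than 1 tested probe, 4 had all probes called one way (Prpf18, Prpf4, Snrpa and Srsf5), 10 had some called, 17 had none called and 0 had opposite calls. In 10 of them the fold changes took both signs. The median gap between the lowest and the highest probe of a gene was 0.54 on the log2 scale, beside 0.64 over all genes with several tested probes.

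The widest gap was in Sf3b3. The probe listed under its RefSeq mRNA gave 0.55 ± 0.16 (adjusted p = 0.0605 among all probes), and both probes listed under a cDNA clone gave -2.37 ± 0.18 and -2.43 ± 0.18 (each adjusted p = 0.00686). Snrnp70 behaved alike: 0.41 ± 0.23 on the RefSeq probe and -2.14 ± 0.19 on a clone probe (adjusted p = 0.00687). On FLAG IP replicate 1 the processed signals of these 3 clone probes were 2.61, 3.91 and 3.22 and each was well above background on 3 of the 4 arrays. Calls elsewhere also rested on probes listed under entries other than a RefSeq mRNA, among them the only probes of Akap17b and Lsm1. The called probe of Lsm14b was listed likewise, and its RefSeq probe gave 0.24 without a call. What part of the message such probes report was not tested.

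Probes listed under the same RefSeq mRNA differed as well. For Srsf1 one gave 0.71 ± 0.17 and the other -0.81 ± 0.25 (adjusted p = 0.0372 and 0.0643). Srek1 had probes at 1.66 and 1.59, both higher, and at -0.08, not called. The 5 probes of Sfswap were instead listed under several GenBank entries. Of these probes 3 were higher and 1, listed under another clone, gave -0.37. Calls of these genes therefore hold for the probe that stood for the gene.

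**Figure D4:**
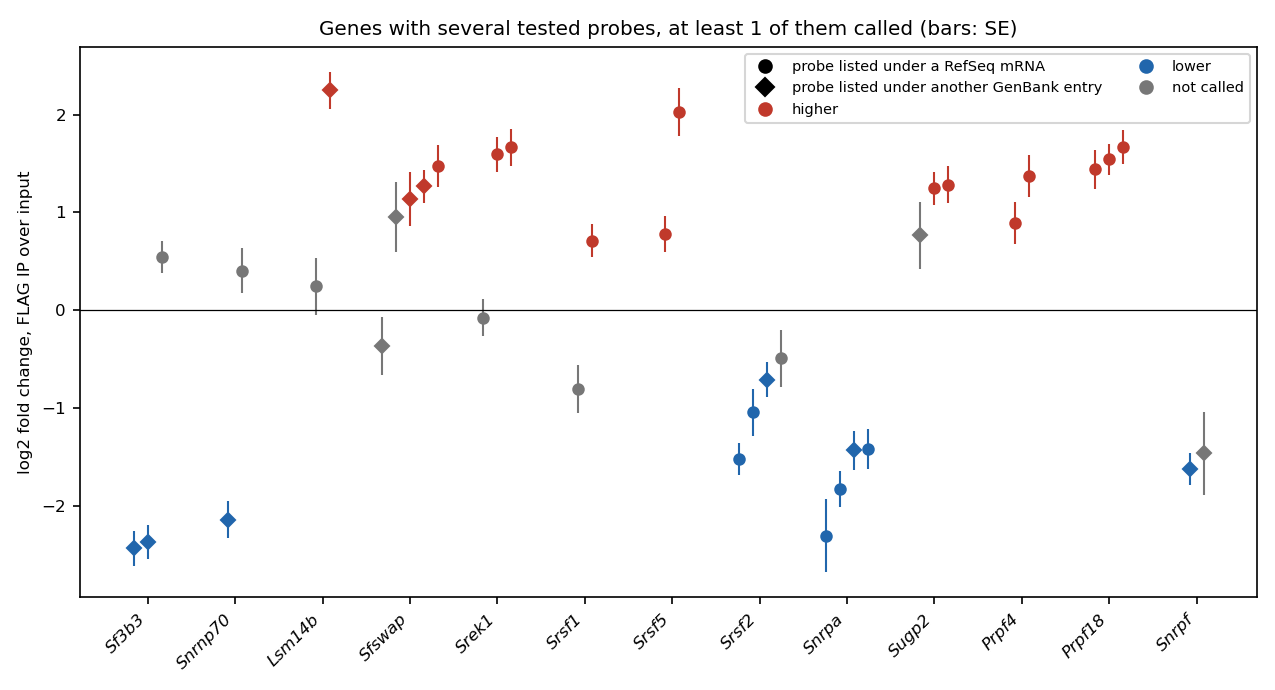
Log2 fold change, FLAG IP over input, of each tested probe of 13 members with several tested probes and at least 1 call, with bars of 1 SE, round points for probes listed under a RefSeq mRNA and diamonds for other GenBank entries. Snrpa and Prpf18 have every probe on one side, whereas Sf3b3 spans -2.43 to 0.55 and Snrnp70 -2.14 to 0.41.

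The replicates of input were closer to each other than those of FLAG IP. The median SD over the 62 genes was 0.06 in input and 0.26 in FLAG IP, and over all genes it was 0.06 and 0.30. FLAG IP replicate 1 read higher than replicate 2 in 32 of the 62 genes. The FLAG IP arrays differed by more than 1 on the log2 scale in 5 members: Sf3b1, Scaf11, Snrpg, Prpf38a and Snrpf. Of these only Snrpf was called.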

How the data were processed

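Per the labels, RNA of both groups was amplified, labelled with Cy3 and hybridised to one-colour arrays. The submitters' processing notes name Agilent Feature Extraction 9.5 as the scanner software. Per the file headers, the deposited intensity of a spot is its processed signal, already corrected for background. The deposited table gives per probe a raw intensity for each group, a ratio of FLAG IP to input and a p-value; the authors' p-value was not used. Its raw values equalled the mean of a group's arrays within 1% for 99.9% (input) and 99.8% (FLAG IP) of probes, so they are pooled. Per-sample columns left unused numbered 0.

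Log2 of the deposited processed signal minus the 75th percentile of the array was analysed. Spots marked as outliers were set to missing, and no spot was saturated. Probes had to be well above background in both replicates of input or of FLAG IP, and the brightest passing probe stood for a gene. Of 41174 probes, 31004 were named by gene ID through RefSeq (GRCm38.p6), 309 by an older symbol, 1263 by the file alone and 8598 were unnamed; 1 probe that would have taken the name Lsm3 kept its own. The fit used limma 3.58.1 in R 4.3.3 (lmFit, eBayes; 2 residual and 2.08 prior degrees of freedom, no block), and the steps were tested on simulated data. Every member could be named, and of the other lists at most the 3 largest and 3 most negative called values. The members and lists were chosen with earlier results of these data known. The alternatives were other background corrections, scalings, filters, probe choices, moderation, blocks and arrays left out. No coordinates or sequences are given. Of the members, 1 is counted but not reported here by name.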

Additional observations from a re-analysis of the deposited data

How the results depend on the processing

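Over all genes 8158 were called. Calls numbered 2676 with normexp (offset 50), 2976 with the slide block, and 0 with no scaling (limma; 4047 at an unadjusted p under 0.05). Leaving out 1 array gave 2976 to 12550, and 0 to 12630 with the filter on dim probes made again, an alternative chosen after seeing the data; its 0 was without input replicate 1, where 5270 genes had an unadjusted p under 0.05. Among the splicing genes, 15 higher and 12 lower became 3 and 7 with normexp, 3 and 3 with the slide block, and 0 and 0 with no scaling (unadjusted 0 and 14). The lower count was 5 with no filter (13.9% of all genes). Over single probes it was 20 of 108 member probes (22.4% of all probes). Arrays left out gave 3 to 26 higher and 3 to 25 lower, or 0 to 26 and 0 to 23 with the filter made again (unadjusted 10 and 5 at 0, without input replicate 1). With 1 array left, a group was assumed to vary like the other. The replicate numbers were not shown to pair the arrays (correlation of their differences across genes 0.050). The replicate block gave 8005 calls, 12 members higher and 13 lower (27.1% and 25.4% of all genes). Every other alternative kept these counts within 1.5 times.

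Scalings are compared relative to the shift they gave the median of all genes, which was 0.31 for normexp, -0.07 for quantile normalization, -0.13 for median centring and -2.49 for no scaling. The median of the members, -0.08, was then -0.73 with normexp, 0.27 with quantile normalization and between -0.058 and 0.15 without 1 array. It moved by less than the spread between the FLAG IP arrays under the others. Of the 27 called genes, Sf3b3 (-1.42) and Srsf1 (-0.048) reversed with the mean of a gene's probes, and no called gene reversed elsewhere.

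Genes without a call also changed sign. With normexp these were Lsm3 (-0.33), Prpf3 (-1.01), Prpf38b (-0.0087), Prpf40b (-0.44), Sf3a1 (-0.093), Snrnp70 (-0.60), Snrpb2 (-0.44), Snrpg (-0.89), Srsf11 (-0.064) and Srsf4 (-0.39). With quantile normalization they were Lsm6 (0.081), Lsm7 (0.043), Lsm8 (0.10), Prpf38a (0.021), Prpf6 (0.49), Prpf8 (0.065), Sf3a3 (0.43), Sf3b2 (0.28), Snrpd3 (0.60) and Srsf9 (0.32). With the mean of the probes they were Prpf38b (-0.12), Prpf8 (0.065), Scaf11 (0.034), Snrnp70 (-0.87) and Snrpd3 (0.043), and with the slide block Prpf3 (-0.021) and Prpf8 (0.015). On the mean of its probes Snrnp70 was called lower (adjusted p = 0.0262). Without 1 array, the ranges that crossed 0 were Lsm2 (-0.35 to 0.18), Lsm5 (-0.56 to 0.054), Lsm6 (-0.60 to 0.39), Lsm8 (-0.44 to 0.062), Prpf3 (-0.095 to 0.11), Prpf38a (-0.72 to 0.40), Prpf38b (-0.29 to 0.65), Prpf8 (-0.45 to 0.30), Scaf11 (-0.98 to 0.58), Sf3b2 (-0.50 to 0.15), Snrpd3 (-0.34 to 0.0059) and Snrpg (-0.51 to 0.77). The causes were not tested.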

Other observations

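In the authors' deposited table the ratio of FLAG IP to input had a median of 1.53 over all non-control probes and of 1.01 over the member probes, dim probes included. Of the 108 tested member probes, 51 had a ratio above 1 and 57 below 1 in that deposited table, and 106 lay on the same side as the log2 fold change from the arrays. The ratios come from the same arrays, so this match and the ratios below are not independent evidence. The authors' deposited table gave Sf3b5 0.129, Snrpd2 0.171 and Lsm4 0.232. For genes that were higher, the authors' deposited table gave Akap17b 5.05, Lsm14b 4.37 on its brighter probe and Srsf5 3.75.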
